A study of Mus musculus with 4 samples.

Results

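The genes described here encode the contractile, calcium-handling, energy and regulatory proteins of heart muscle cells, measured in whole mouse lung, where heart muscle extends from the left atrium into the walls of the pulmonary veins. They are 37 named genes out of 21931 in the deposited table, each found by its gene symbol. The 4 lung libraries came from C57BL6 mice aged 2 months that received no added treatment: 1 library labelled wild type, 2 labelled Dnah9 knockout, and 1 labelled Hez, a word the labels do not explain and which is kept as written. Dnah9 encodes a motor protein of motile cilia. The labels do not say which part of it was removed, whether the animals were littermates, or whether a library pools several mice.

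The genes were chosen with earlier results of these libraries known, in which wild type stood above the knockout libraries for heart muscle genes. Values of that comparison are therefore given as a description, its counts of calls are printed beside those of all genes for completeness, and nothing is supported with either. The comparison with Hez was tested across all genes, but it uses the same knockout libraries, and the choice of genes was not blind to it either.

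A heart muscle cell contracts when calcium enters through the surface membrane and opens the ryanodine receptor of the sarcoplasmic reticulum. The released calcium binds troponin on the thin actin filament, which lets the myosin heads of the thick filament pull. Titin, the Z-disc and the M-band hold the filaments in register, and the calcium pump of the reticulum, restrained by phospholamban and sarcolipin, ends the contraction. Atrial muscle uses its own light chains (Myl7, Myl4) and sarcolipin (Sln), and ventricular muscle uses Myl2. In mice and other rodents, muscle of the atrial kind forms a sleeve around pulmonary veins deep into the lung.

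In the knockout libraries heart muscle genes stood together below both other libraries. The summed level of the 37 genes was 1859 CPM (read count relative to the TMM-scaled library total) in wild type and 1755 in Hez, against 1183 and 1350 in knockout libraries 1 and 2, which is 63.6% and 72.6% of wild type. The 95% exact Poisson intervals were 1838 to 1880 in wild type, 1735 to 1776 in Hez, 1166 to 1200 in knockout 1 and 1332 to 1368 in knockout 2, and they cover counting error only. Leaving out Myh6 and Actc1, which held 40.1% of the reads of these genes in wild type, the knockout libraries stood at 62.4% and 68.1% of wild type and Hez at 92.3%. In whole tissue, fewer heart muscle cells and less RNA per cell cannot be told apart.

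Both knockout libraries lay below wild type and below Hez for 32 of the 37 genes. The same order was seen for 16.3% of all 15055 genes tested. Genes of the same cell type can move together, so the 37 are not separate observations, and nothing is read from this count. The 5 exceptions were Myh7, Cmya5, Ankrd1, Nppa and Nkx2-5. No single gene passed the threshold over all genes (edgeR, adjusted p below 0.05): 0 of 37 against wild type, where 0.0531% of all genes passed (0.0399% as lower), and 0 of 37 against Hez, where 0.00664% did. Against wild type alone, both knockout libraries lay lower for 34 genes, beside 33.4% of all genes. With wild type and Hez as 1 group of 2, 36 of the 37 were tested and 0 passed in edgeR, where 0.0136% of all genes passed, each of these as lower. At an unadjusted p below 0.05 there were 27, all lower, beside 2.75% of all genes. That group holds the wild-type library which guided the choice, so nothing is read from these counts either.

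Depth was even across the libraries, at 15860478 to 16553480 reads, and mitochondrially encoded genes took 3.02% to 3.36% of them. Dnah9 had 917 reads in wild type, 420 in Hez, and 240 and 254 in the knockout libraries. With 1 wild-type and 1 Hez library, the spread between samples comes from the knockout pair and from the trend over all genes. P-values assume that the lone libraries vary alike, and they reflect no more than the variation among these 4 samples, part of which may be technical.

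Promoters are shown to describe the genes, and whether they bear on the lower levels in the knockout libraries was not tested. RefSeq promoters (build GRCm38.p6, 250 bases before to 50 after the start of the transcript) were at hand for 31 of the 37 genes, 37 promoters in all. Actc1 and Myl7 had the highest level per length, and Myh6 and Myh7 are the neighbouring myosin heavy chain genes of chromosome 14, of which Myh6 lay lower in the knockout libraries and Myh7 did not. Capitals mark matches, on either strand, to the CArG box, the MEF2 site, AGATAA, read by GATA factors, or CATTCC, the M-CAT element read by TEAD factors, and the sequences read 5′ to 3′ along the gene. The windows are chr2:114052826-114053125 for Actc1, chr11:5898733-5899032 for Myl7, chr14:54966558-54966857 for Myh6 and chr14:54994577-54994876 for Myh7, all on the minus strand. On GRCm39, the build of the counts, the genes span chr2:113877763-113884029 (Actc1, ENSMUSG00000068614), chr11:5846637-5848782 (Myl7, ENSMUSG00000020469), chr14:55179378-55204384 (Myh6, ENSMUSG00000040752) and chr14:55208141-55232083 (Myh7, ENSMUSG00000053093).
Actc1: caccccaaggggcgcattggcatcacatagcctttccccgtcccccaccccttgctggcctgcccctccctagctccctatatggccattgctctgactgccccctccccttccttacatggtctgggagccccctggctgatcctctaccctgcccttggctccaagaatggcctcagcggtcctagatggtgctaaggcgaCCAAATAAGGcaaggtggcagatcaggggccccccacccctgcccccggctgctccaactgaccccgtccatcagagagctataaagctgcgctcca
Myl7: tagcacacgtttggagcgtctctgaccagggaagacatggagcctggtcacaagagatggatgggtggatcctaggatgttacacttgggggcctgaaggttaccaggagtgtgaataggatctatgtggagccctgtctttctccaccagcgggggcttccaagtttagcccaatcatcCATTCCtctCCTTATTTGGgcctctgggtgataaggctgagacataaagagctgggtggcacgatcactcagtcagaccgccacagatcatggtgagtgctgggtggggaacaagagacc
Myh6: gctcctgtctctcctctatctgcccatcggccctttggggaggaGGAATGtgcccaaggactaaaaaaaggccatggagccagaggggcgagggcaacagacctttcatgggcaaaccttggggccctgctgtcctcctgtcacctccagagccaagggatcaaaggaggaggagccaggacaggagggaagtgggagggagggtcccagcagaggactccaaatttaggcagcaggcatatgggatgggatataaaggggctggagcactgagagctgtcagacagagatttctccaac
Myh7: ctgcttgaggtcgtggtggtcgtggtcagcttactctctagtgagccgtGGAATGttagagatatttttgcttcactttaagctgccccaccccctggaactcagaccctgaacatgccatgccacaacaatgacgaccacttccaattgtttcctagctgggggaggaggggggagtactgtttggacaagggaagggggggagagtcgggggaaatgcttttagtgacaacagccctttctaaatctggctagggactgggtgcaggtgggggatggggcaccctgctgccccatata

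The capitals in Actc1 are a CArG box that begins 47 bases before the start. Myl7 has M-CAT at 70 bases and a CArG box at 61 bases before the start. Myh6 and Myh7 each carry M-CAT on the opposite strand, at 206 and 201 bases before the start. Myh7 has another promoter in the table, at chr14:54994500-54994799, with 0 matches, and it is not printed. Over the 37 promoters, 6 held a CArG box (16.2%, against 1.63% of all 32851 promoters of the table), 4 a MEF2 site (10.8%, against 3.19%), 6 AGATAA (16.2%, against 11.2%) and 9 CATTCC (24.3%, against 14.7%). The CArG matches belonged to Actc1, Ldb3, Myl3, Myl7 and Myom1, the Ldb3 promoters being overlapping windows that share a match. A match is a run of letters in this window, not a measured binding site.

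Per length, the genes spanned a wide range. FPKM, the read count relative to gene length and library total, was highest for cardiac alpha-actin Actc1, at 218 in wild type, 168 in Hez, and 145 and 151 in the knockout libraries. The atrial regulatory light chain Myl7 followed at 101, 109, 57.2 and 78.4 in the same order, and the alpha myosin heavy chain Myh6 at 59.1, 67.6, 37.1 and 51.8. In all 14 genes had a mean of 10 FPKM or more and 4 were below 1, namely Nppa, Ttn, Trdn and Nkx2-5. FPKM divides by the length in the deposited table, and the sources used here do not say how that length was set.

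**Figure D1:**
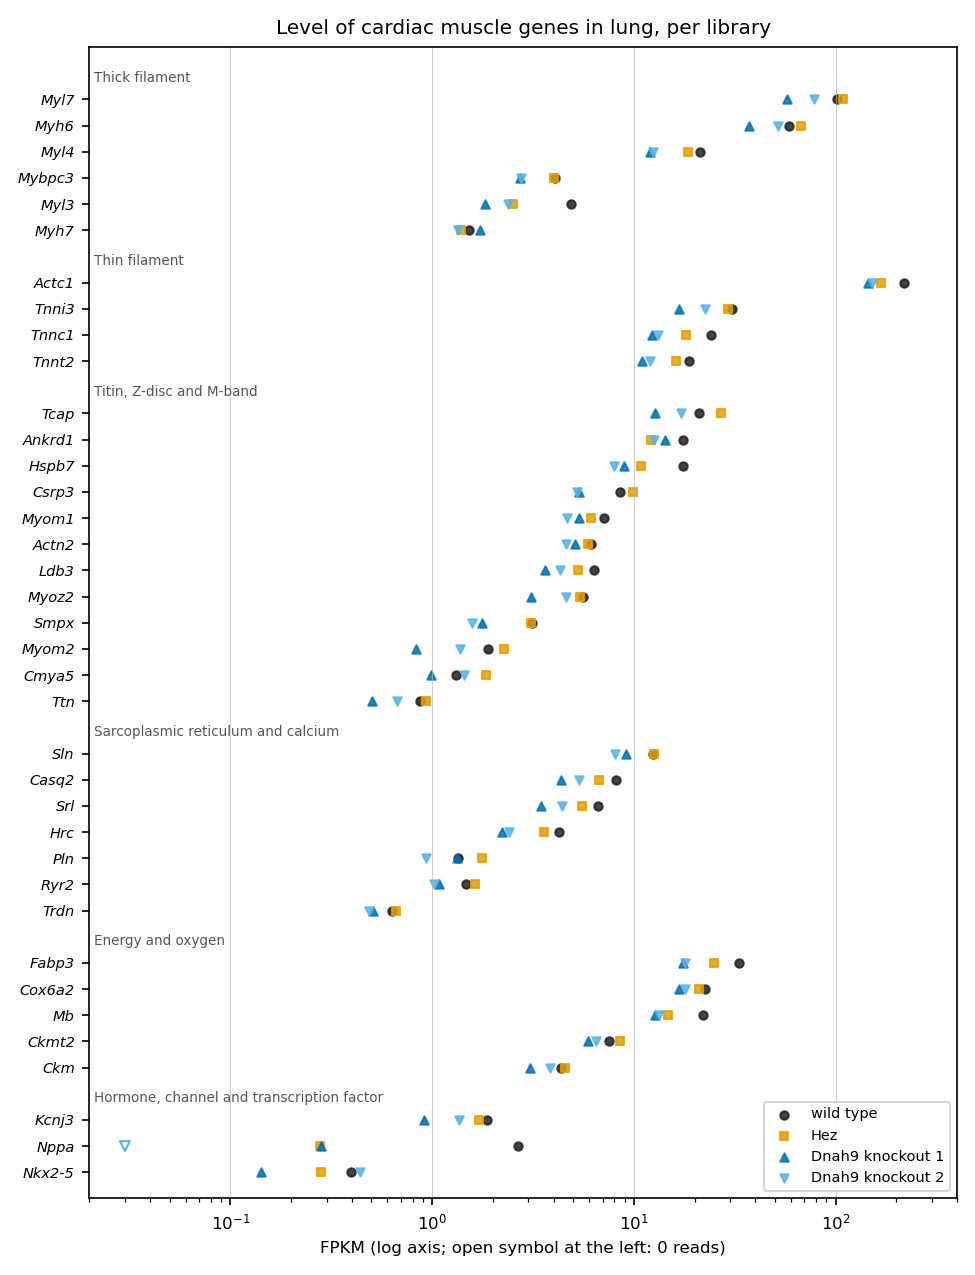
FPKM of each of the 37 genes (rows, grouped by role) in each library on a log axis, 1 symbol per library; the open symbol at the left marks Nppa in knockout 2, with 0 reads. Actc1, Myl7 and Myh6 stand highest, and the knockout symbols lie to the left of wild type and Hez for 32 genes.

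Of 3 ventricular marker genes, Myl2 and Irx4 were at or near 0 reads and Hey2 was not. Myl2, the ventricular regulatory light chain, had 3 reads in wild type, 2 in Hez, 3 in knockout 1 and 0 in knockout 2, and the ventricular transcription factor gene Irx4 had 0 in every library. Hey2, a transcriptional repressor that vessels make too, had 107 reads in wild type, 118 in Hez, and 77 and 122 in the knockout libraries. Myh6 exceeded Myh7, the beta myosin heavy chain, 38.9-fold in FPKM in wild type, 48.7-fold in Hez, and 21.4-fold and 38.5-fold in knockout libraries 1 and 2. The coding sequences of these neighbours are much alike, and the sources used here do not say how reads shared between them were counted. Actc1 exceeded the skeletal alpha-actin Acta1 158- to 203-fold over the 4 libraries.

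In FPKM the atrial light chain Myl7 exceeded Myl4 4.78-fold in wild type, 5.82-fold in Hez, and 4.78-fold and 6.33-fold in the knockout libraries. Bmp10, a growth factor gene of the atrium, had 0 reads in all 4 libraries. Counts per gene do not show where in the lung these transcripts lay, so the vein wall is known from the biology of the mouse and not measured here.

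Thick filament genes stood lower in the knockout libraries with the exception of Myh7. Myl4, the atrial essential light chain, was at 97.8 CPM in wild type, 86.6 in Hez, and 55.9 and 57.4 in the knockout libraries. The knockout libraries were close to each other and below both references. The log2 fold was -0.79 (SE 0.0982, n = 2 against 1) against wild type and -0.61 (SE 0.0988, edgeR adjusted p = 0.299) against Hez, the smallest adjusted p of the 37 genes in the comparison with Hez.

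Myh6 stood at 395 CPM in wild type and 456 in Hez, against 251 and 348 in the knockout libraries. Myl7 stood at 59.4 and 64.2, against 34.0 and 46.2. For both, Hez was the highest library and knockout 1 the lowest, with knockout 2 nearer to wild type. Against Hez the log2 folds were -0.60 (SE 0.164, edgeR adjusted p = 0.781) for Myh6 and -0.68 (SE 0.168, adjusted p = 0.717) for Myl7, and against wild type they were -0.40 (SE 0.165) and -0.57 (SE 0.169).

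Mybpc3, the myosin-binding protein C that tunes the heads, was at 16.8 CPM in both wild type and Hez and at 11.5 in both knockout libraries. Wild type and Hez were level with each other, and so were the knockout libraries. The essential light chain Myl3 of ventricle and slow muscle stood at 9.94 CPM in wild type but at 5.14 in Hez, 3.75 in knockout 1 and 4.84 in knockout 2, so here wild type stood apart from the other libraries. Myh7 was at 13.0 in wild type, 12.0 in Hez, and 15.1 and 11.6 in the knockout libraries, which overlapped the references (log2 fold 0.03, SE 0.235, against wild type).

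All 4 thin filament genes had both knockout libraries lowest. Tnnt2, the troponin subunit that anchors the complex to tropomyosin, stood at 145 CPM in wild type, 126 in Hez, and 86.2 and 92.8 in the knockout libraries. Tnni3, the inhibitory subunit, stood at 62.8, 60.6, 34.6 and 46.6 in the same order, and Tnnc1, the calcium sensor, at 24.9, 18.9, 12.8 and 13.7. For each of the 3 subunits the knockout libraries were below Hez, and Hez was below wild type.

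The log2 folds against wild type were -0.70 (SE 0.102) for Tnnt2, -0.63 (SE 0.165) for Tnni3 and -0.91 (SE 0.176) for Tnnc1. Against Hez they were -0.49 (SE 0.103, edgeR adjusted p = 0.599), -0.58 (SE 0.166, adjusted p = 0.815) and -0.51 (SE 0.179, adjusted p = 0.97), none of which passed. Tnni3 overlaps Dnaaf3 on the same strand over 1297 bases. Tnnc1 overlaps Nisch on the opposite strand over 3418 bases, its whole span. Nisch had 8768 to 9983 reads, so the counts of Tnnc1 are uncertain. Other genes with an overlap on the opposite strand were Myl3 (Pth1r, 5285 bases), Mb (Apol6, 5942) and Cox6a2 (Itgad, 953). Shorter ones were found for Myom1 (Myl12a, 246), Myh7 (Gm17428, 93) and Fabp3 (Zcchc17, 81). Reads in those stretches may not be separated.

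Actc1 in Hez lay nearer to the knockout libraries than to wild type. It stood at 350 CPM in wild type, 271 in Hez, and 237 and 243 in the knockout libraries. The log2 fold against wild type was -0.54 (SE 0.0908), while against Hez it was -0.18 (SE 0.092, edgeR adjusted p = 1). The ratio of Actc1 to Myh6 in FPKM was 3.69 in wild type and 2.48 in Hez, with 3.91 and 2.91 in knockout libraries 1 and 2.

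**Figure D2:**
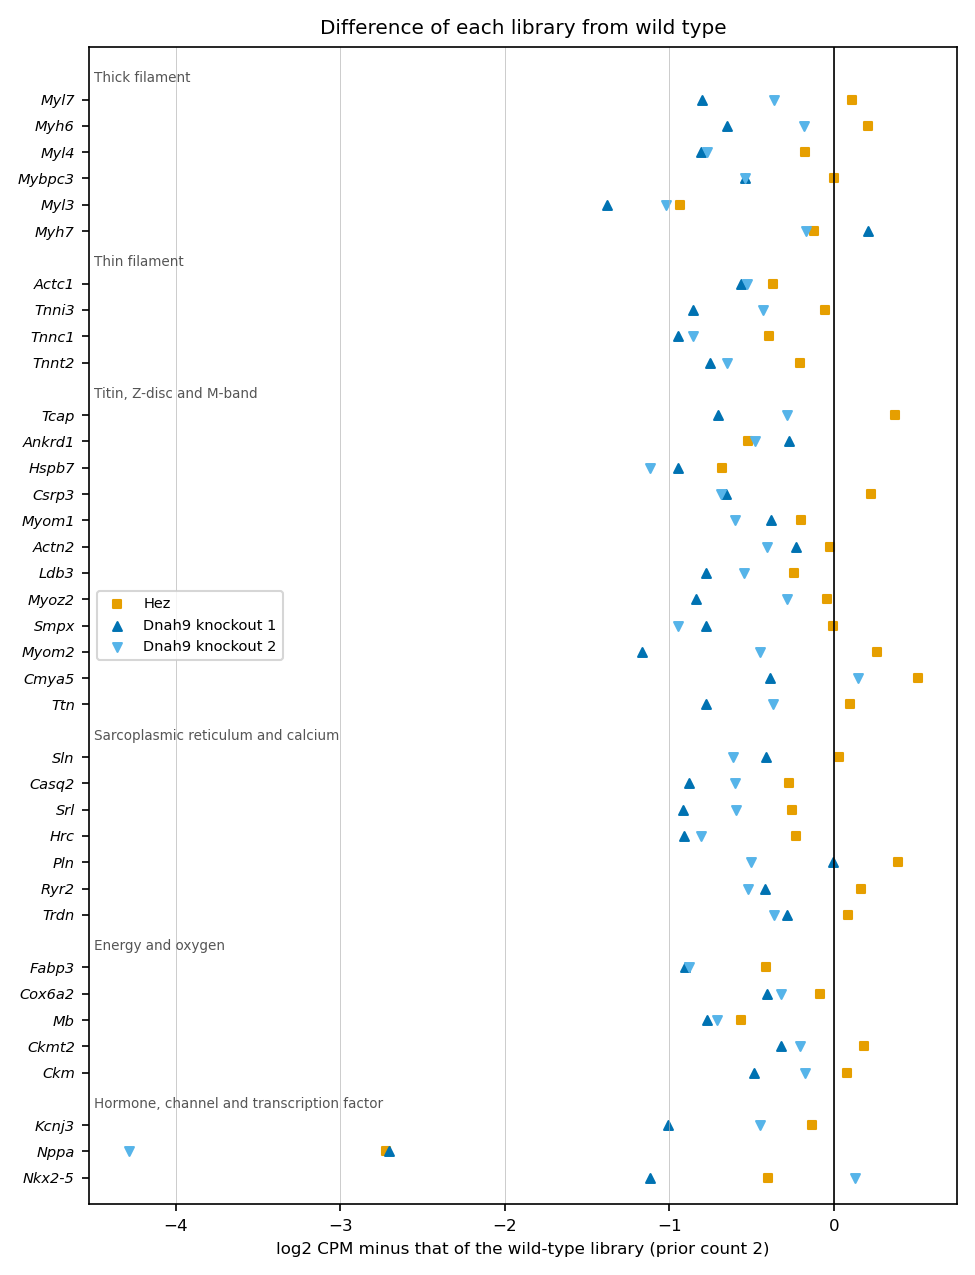
Difference in log2 CPM (prior count 2) of the Hez and the knockout libraries from the wild-type library for each gene, grouped by role; the vertical line at 0 is wild type. Knockout symbols lie left of 0 for most genes, while Hez symbols lie on both sides of it, 23 of 37 below.

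Genes of titin, the Z-disc and the M-band had negative folds against wild type in 12 of 12, with a median of -0.55. Hspb7, a small heat shock protein of the sarcomere, was at 48.1 CPM in wild type, 30.0 in Hez, and 24.96 and 22.1 in the knockout libraries, with a log2 fold of -1.03 (SE 0.144) against wild type and -0.35 (SE 0.149, edgeR adjusted p = 1) against Hez. Hez lay nearer to the knockout libraries than to wild type. Ankrd1, a titin-bound ankyrin repeat protein that responds to stretch, was at 50.3 in wild type and at 35.03 in Hez, with 41.6 and 36.0 in the knockout libraries, so Hez was lowest.

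The opposite placement of Hez was seen for Csrp3 and Tcap. Csrp3, the muscle LIM protein of the Z-disc, was at 22.6 CPM in wild type and 26.5 in Hez, against 14.3 and 14.0 in the knockout libraries, a log2 fold of -0.67 (SE 0.17) against wild type and -0.91 (SE 0.168, edgeR adjusted p = 0.505) against Hez. Tcap, which caps titin at the Z-disc, was at 19.8 and 25.7, against 12.1 and 16.2. In both, the knockout libraries lay below wild type and Hez lay above it.

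Titin itself, Ttn, stood at 102 CPM in wild type, 109 in Hez, and 59.4 and 78.7 in the knockout libraries. The M-band genes Myom1 and Myom2 had log2 folds of -0.49 (SE 0.122) and -0.77 (SE 0.285) against wild type. Ldb3, Myoz2, Actn2 and Smpx, proteins of the Z-disc and the filament lattice, ranged from -0.88 for Smpx to -0.32 for Actn2, with both knockout libraries lowest in all 4. Cmya5, a large protein that binds desmin and titin, was at 15.4 in wild type and 22.02 in Hez, with 11.7 and 17.1 in the knockout libraries, which lay on either side of wild type.

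Every one of the 7 genes of the sarcoplasmic reticulum had both knockout libraries lowest. Sarcolipin, Sln, was at 16.2 CPM in wild type, 16.6 in Hez, and 12.2 and 10.6 in the knockout libraries. Casq2, the calcium-binding store protein, was at 22.3, 18.5, 12.0 and 14.7 in the same order, and Srl, the luminal protein sarcalumenin, at 35.3, 29.6, 18.6 and 23.3. Hrc, a calcium-binding regulator of release and uptake, was at 10.9, 9.26, 5.72 and 6.17.

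Over these 7 genes the log2 folds ran from -0.87 (Hrc) to -0.24 (Pln) against wild type, with a median of -0.51, and from -0.64 to -0.42 against Hez, with a median of -0.54. Ryr2, the release channel, had -0.47 (SE 0.131) against wild type and -0.64 (SE 0.13, edgeR adjusted p = 0.599) against Hez. Trdn, which couples calsequestrin to the channel, had -0.33 and -0.42. Phospholamban, Pln, had 60, 81, 60 and 41 reads in wild type, Hez, knockout 1 and knockout 2, and wild type and knockout 1 were level at 3.70 and 3.69 CPM. It lies inside Cep85l, on the opposite strand, which had 1035 to 1240 reads, so its counts are uncertain. In FPKM, Sln exceeded Pln 6.91- to 9.18-fold over the 4 libraries.

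Genes of energy supply and oxygen storage had both knockout libraries lowest in 5 of 5. Fabp3, the fatty acid carrier of heart, was at 27.3 CPM in wild type, 20.5 in Hez, and 14.5 and 14.8 in the knockout libraries. Myoglobin, Mb, was at 32.6, 22.1, 19.1 and 19.9 in the same order. For Fabp3 and Mb, Hez lay between wild type and the knockout libraries, close to the knockout libraries for Mb (log2 fold against Hez -0.18, SE 0.16, edgeR adjusted p = 1).

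Cox6a2, the muscle isoform of a cytochrome oxidase subunit, was at 15.2, 14.3, 11.4 and 12.1 CPM, and the mitochondrial creatine kinase Ckmt2 at 11.1, 12.6, 8.85 and 9.63. Ckm, the cytosolic creatine kinase of heart and skeletal muscle, had a log2 fold of -0.32 (SE 0.234) against wild type. Cox6a2 had -0.36 (SE 0.201) and Ckmt2 -0.27 (SE 0.228), nearer to 0 than Fabp3 (-0.90, SE 0.167) and Mb (-0.74, SE 0.155).

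The hormone, channel and transcription factor genes had few reads. Nppa, which encodes atrial natriuretic peptide, had 37 reads in wild type, 4 in Hez, 4 in knockout 1 and 0 in knockout 2. In CPM this was 2.28 (95% exact Poisson interval 1.61 to 3.15), 0.242 (0.0659 to 0.62) and 0.246 (0.067 to 0.63), and the interval for the 0 reads of knockout 2 was 0 to 0.232. Wild type thus stood apart from the other 3 libraries, Hez included, and Nppa passed the filter on low counts through wild type alone. Its fitted fold depends on the prior count and is no bound. Kcnj3, a subunit of the acetylcholine-gated potassium channel of atrium, was at 9.75 CPM in wild type, 8.89 in Hez, and 4.79 and 7.11 in the knockout libraries. Nkx2-5, the cardiac homeobox factor, had 11, 8, 4 and 12 reads, too few for a difference to be detectable at this depth.

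Against wild type, 36 of the 37 folds were negative, where 48.9% of all genes were, with a median of -0.56 beside 0.00449 over all genes. At an unadjusted p below 0.05 there were 26 genes, all of them lower, beside 3.37% of all genes, and nothing is read from this count because that comparison guided the choice. DESeq2's Wald test left 18 of the 37 without an adjusted p through its own filter on low means, and of the other 19 it called 2 (Myl4 and Tnnt2), beside 0.179% of the 8925 genes with an adjusted p. It had 17 at an unadjusted p below 0.05, all lower, beside 0.864% of all genes. Limma-voom called 0, beside 0.0598% of all genes. Without knockout 1 the median was -0.52, and without knockout 2 it was -0.77.

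Against Hez, 34 of 37 folds were negative, where 47.5% of all genes were, with a median of -0.50 beside 0.00989 over all genes. At an unadjusted p below 0.05 edgeR had 22 of the 37, all lower, beside 2.11% of all genes, and no gene passed after adjustment. DESeq2 had 9 at that level, all lower, beside 0.518% of all genes, and limma-voom had 20, all lower, beside 2.44%. Neither called any of the 37, where DESeq2 called 0.0465% and limma-voom 0.00664% of all genes. The most negative fold was that of Myom2 (-1.04, SE 0.28, edgeR adjusted p = 0.781). Nppa, Csrp3, Smpx and Tcap followed, at -0.92 (SE 1.47), -0.91 (SE 0.168), -0.88 (SE 0.308) and -0.86 (SE 0.209, adjusted p = 0.717), and Nppa rests on 4 reads or fewer in these libraries. Both comparisons draw on the same knockout libraries and are not independent of each other. The genes were not chosen blind to the comparison with Hez, and they can move together, so nothing is read from its counts either.

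**Figure D3:**
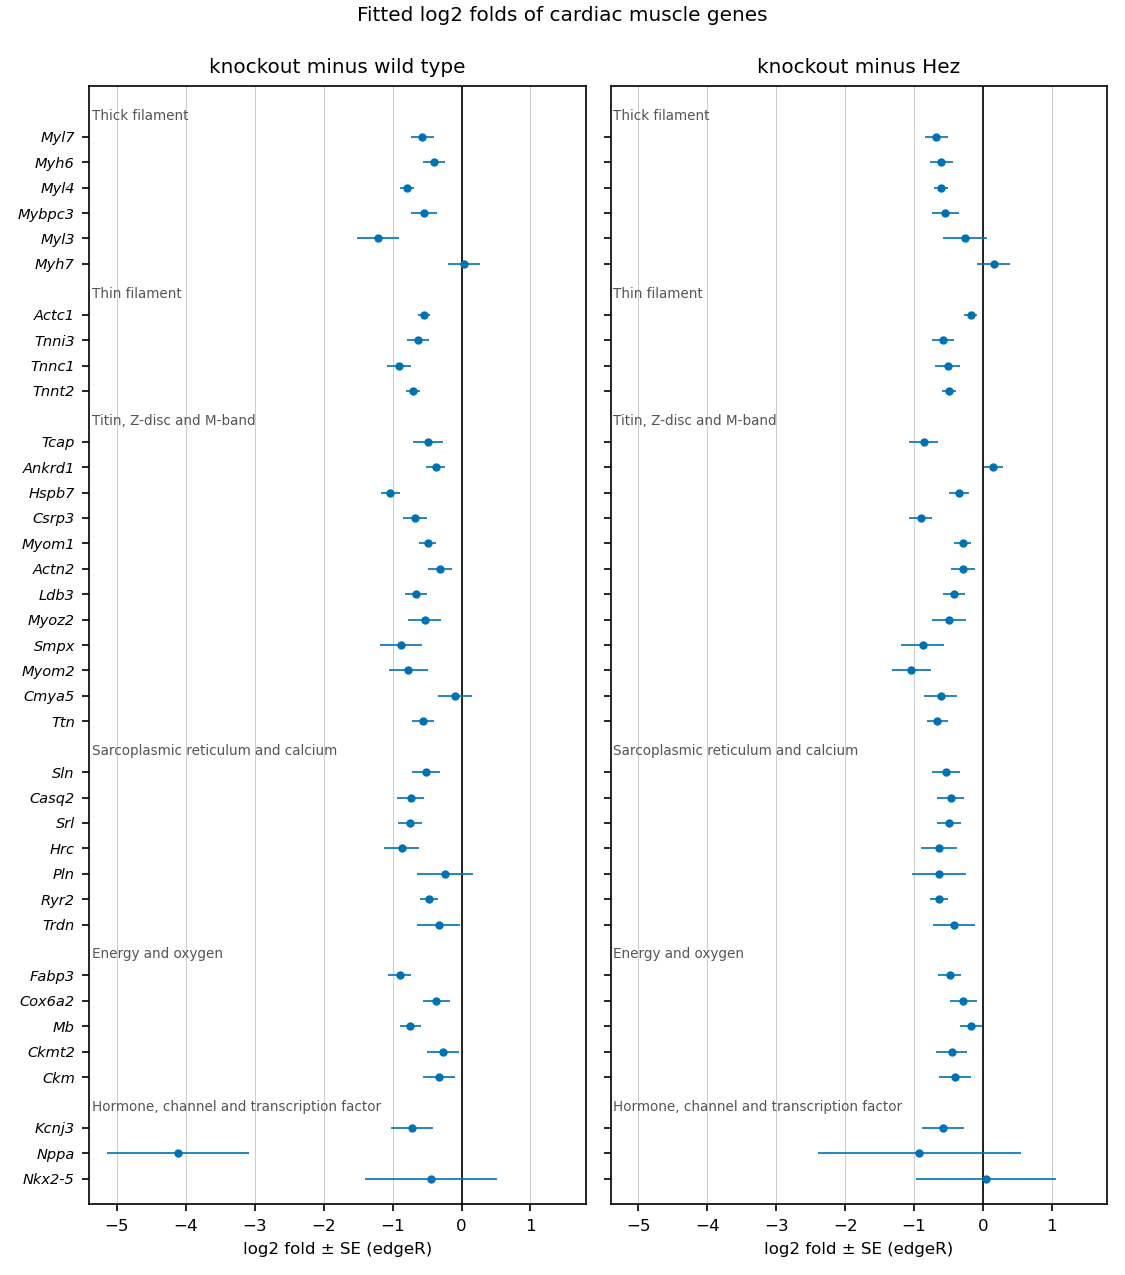
Fitted log2 fold of the knockout libraries against wild type (left) and against Hez (right), with bars of 1 SE, for each gene by role. Points lie left of 0 for 36 genes on the left and 34 on the right; Nppa and Nkx2-5, with few reads, have the widest bars.

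Hez and wild type were not tested against each other, having 1 library each. Hez lay below wild type for 23 of 37 genes, beside 50.4% of all genes, with a median log2 difference of -0.08, and 22 genes differed by less than 0.25. The summed level by role in Hez was 108% of wild type for the thick filament and 97.1% for the sarcoplasmic reticulum, but 81.8% for the thin filament and 83.9% for energy and oxygen genes. Genes with a larger deficit in Hez were Nppa (-2.72), Myl3 (-0.93), Hspb7 (-0.68), Mb (-0.56) and Ankrd1 (-0.52), while Cmya5 (0.51), Pln (0.39) and Tcap (0.37) were higher there. These genes are named for the size of their difference, and they come from several roles.

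The knockout libraries also differed from each other. Knockout 2 stood above knockout 1 for 25 of 37 genes, beside 50.3% of all genes, with a median log2 difference of 0.09. Among genes with a mean over 30 CPM, differences were largest for Myh6 (0.47), Myl7 (0.44), Tnni3 (0.43) and Ttn (0.40), while Myl4 (0.04) and Actc1 (0.04) were level. Among genes below that mean, Mybpc3 (0.00) was level. Larger differences than for Myh6 were seen there for Myom2 (0.72), Kcnj3 (0.56), Myoz2 (0.55), Cmya5 (0.54) and Pln (-0.50). Nppa (-1.58) and Nkx2-5 (1.25) differed most, on few reads. Wild type was the highest library for 21 genes and Hez for 14, and knockout 1 was the lowest for 25 and knockout 2 for 11.

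Other genes of heart muscle, from a list that shares no gene with the 37, had medians nearer to 0. Of 34 such genes 31 were tested, 22 had negative folds against wild type (median -0.33) and 22 against Hez (median -0.24), and 0 passed in edgeR in either comparison, with 8 and 6 at an unadjusted p below 0.05. Of these, 6 and 5 were lower beside the 3.37% and 2.11% of all genes given above, and Gja5 (0.59) and Mef2c (0.28) had positive folds against wild type. DESeq2 and limma-voom calls were not counted for this list. Its most abundant genes, which other lung cells express too, had varied orders. The calcium pump Atp2a2 was at 620 CPM in wild type, 651 in Hez, and 539 and 564 in the knockout libraries. Nebl, which encodes the Z-disc protein nebulette, was at 248, 317, 269.9 and 296.5 in the same order, and the gap junction gene Gja1 at 97.1, 90.7, 101 and 122. The summed level was 94.1% and 102% of wild type in the knockout libraries.

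Genes of other muscle were compared because several of the 37, such as Ckm, Mb, Ttn and Tcap, are also made in skeletal muscle. Fast skeletal muscle genes were scarce: the summed level of 19 genes was 95.6 CPM in wild type, 72.2 in Hez, and 63.6 and 64.9 in the knockout libraries, led by Eno3 and Pgam2, which make enzymes of glycolysis, and Tnnc2 and Cacna1s had 0 reads in every library. Of its 14 tested genes 12 had negative folds against wild type (median -0.35) and 7 against Hez (median -0.01). The fast myosin genes Myh1, Myh2 and Myh4 stood at 2.39 CPM or less in every library. Slow skeletal muscle genes, led by Tnnt1 and Tnni1, summed to 2.47 CPM or less, and of the ventricle list Hey2 alone was tested (-0.09 against wild type, -0.20 against Hez). The part of skeletal muscle in the result was not tested.

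Smooth muscle genes followed another order of libraries. The summed level of 9 genes was 2023 CPM in wild type and 1244 in Hez, against 1602 and 1415 in the knockout libraries. Acta2, smooth muscle actin, stood at 689, 410, 573 and 526, and Myh11, smooth muscle myosin, at 548, 352, 440 and 385. Against wild type 9 of 9 had negative folds (median -0.44), but against Hez 1 of 9 did (median 0.23), and both knockout libraries were lowest for 0 of 9.

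Fat cell and mesothelial genes, like the heart muscle genes, mostly had negative folds in both comparisons. Fat cell genes summed to 328 CPM in wild type and 358 in Hez, against 232 and 166 in the knockout libraries, with 11 of 11 negative in both comparisons (medians -0.93 and -1.25) and both knockout libraries lowest for 8 of 11. Of the 11, 1 (Cfd) passed in edgeR against wild type, beside 0.0531% of all genes, and 0 passed against Hez. Car3 stood at 85.4, 112, 50.4 and 38.8 CPM Cfd, or adipsin, at 64.1, 61.2, 32.3 and 28.1, and Lipe, the hormone-sensitive lipase, at 49.9, 54.4, 59.1 and 38.2. In these genes knockout 2 was lowest, whereas the heart muscle sum was lowest in knockout 1. Ucp1, the uncoupling protein of brown fat, had no read in 3 libraries and stood at 0.0605 CPM in Hez. The brown fat list, led by Prdm16 and Ppargc1a, was 93.2% of wild type in Hez and 84.7% and 99.3% in the knockout libraries. Most of that sum was Prdm16, at 38.8 CPM in wild type, 36.4 in Hez, and 36.1 and 38.8 in the knockout libraries. Of its 6 tested genes 5 had negative folds against wild type (median -0.39) and 3 against Hez (median -0.38). Cidea had 23 reads in wild type, 35 in Hez, and 4 and 7 in the knockout libraries.

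Mesothelial genes, of the surface lining, summed to 382 CPM in wild type, 418 in Hez, 364 in knockout 1 and 279 in knockout 2, with Krt19 and Gpm6a the most abundant, and both knockout libraries lowest for 5 of 9. Of these 9 genes 9 had negative folds against wild type (median -0.50, 1 at an unadjusted p below 0.05) and 8 against Hez (median -0.89, 7 of them at that p), and 0 passed in edgeR. Conducting airway genes, led by the secretory cell genes Scgb1a1 and Cyp2f2, summed to 21004, 16125, 17519 and 14680, and were lower than wild type in Hez as well, with both knockout libraries lowest for 1 of 10. Of the 10, 3 (Scgb3a1, Bpifa1 and Scgb3a2) passed in edgeR against wild type, beside 0.0531% of all genes, and 0 passed against Hez. Alveolar epithelial genes, led by the surfactant protein genes Sftpc and Sftpa1, were 103% of wild type in Hez and 115% and 111% in the knockout libraries. Mitochondrially encoded genes stood at 92.7% in Hez, and at 91.2% and 96.7%. Airway cartilage genes, led by Hapln1 and Comp, and thymocyte genes, led by Dntt and Rag1, summed to 2.71 CPM or less in every library. The part of these cells in the heart muscle result was not tested.

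**Figure D4:**
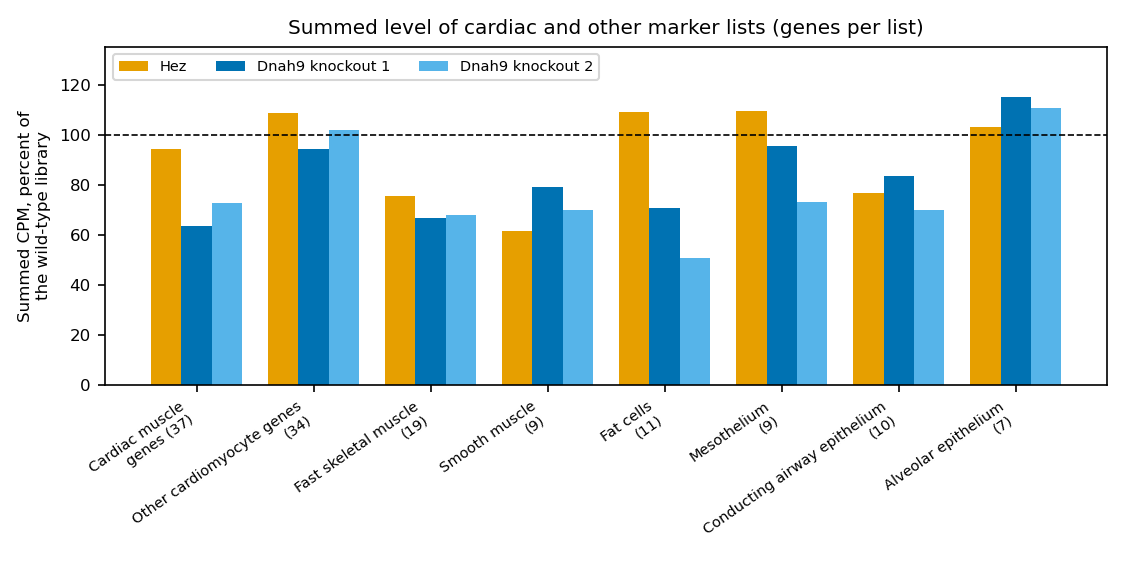
Summed CPM of the 37 heart muscle genes and of 7 lists of other genes in Hez and the knockout libraries, as bars from 0 in percent of the wild-type library (dashed line at 100). The heart muscle sum is 94.4% in Hez and 63.6% and 72.6% in the knockout libraries, and the smooth muscle sum is lowest in Hez.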

How the data were processed

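Lung RNA was made into TruSeq libraries for Illumina sequencing, per the labels' protocols. The deposited table gives unnormalized read counts of each gene in 4 libraries, and FPKM values beside them, per the file headers. FPKM equalled the count divided by library total and gene length for all 66024 values above 0 (relative tolerance 1e-06). The submitters' processing notes name GRCm39. Which aligner, counter, annotation and strand setting were used is not stated in the sources used here. Every pair of libraries differed beyond sampling noise (chi-square over degrees of freedom 8.23 to 12.1), so each was kept as its own sample. The value was 10.28 between the knockout libraries and 8.335 between wild type and Hez. Knockout 1 had 8.685 with wild type and 8.23 with Hez, and knockout 2 had 12.1 and 11.14. Over all genes the knockout libraries were thus not the closest pair.

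TMM factors ran from 0.993 to 1.01. The low-count filter was filterByExpr with a minimum count of 10, which kept 15055 genes and all 37 heart muscle genes. Both knockout comparisons used one edgeR 4.0.16 quasi-likelihood fit over 3 groups (1 residual degree of freedom, 7.02 prior degrees of freedom), two-sided, with Benjamini-Hochberg adjustment over all genes and a threshold of 0.05. Standard errors are the fold over the square root of F. Differences between single libraries use log2 CPM with a prior count of 2. Alternatives were other scalings, filters and tests (DESeq2 1.42.0, limma 3.58.1, limma on FPKM), and libraries left out.

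The genes and lists were chosen with earlier results of these data known. Per role, up to 4 genes with the highest mean FPKM are printed with every library, as is the one closest to the threshold, and the 2 to 4 most abundant genes of each list are named, some with values; other genes were chosen after their values were seen. Promoters were matched by symbol to RefSeq (GRCm38.p6), a build not mixed with table coordinates.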

Additional observations from a re-analysis of the deposited data

How the results depend on the processing

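The median fold of the heart muscle genes stayed negative in both comparisons under every alternative run, that is, DESeq2 size factors, library totals, no filter, a mean of at least 10 CPM, DESeq2, limma-voom, limma on log2(FPKM + 0.5) or + 0.1, the third group left out of the fit, and, for wild type, both references as 1 group. The count of all genes called against wild type was 8, and became 4 with no filter, 4 with the stricter filter, 16 with DESeq2, 1 with either FPKM test and 2 with both references as 1 group. Against Hez it was 1, and became 7 with DESeq2 and 0 with either FPKM test. Heart muscle genes called against wild type were 0, and 2 with DESeq2, (of 19 with an adjusted p), and those at an unadjusted p below 0.05 were 17 with DESeq2 in place of 26, and 9 in place of 22 against Hez. With 1 knockout library left out there is no residual degree of freedom and thus no test. The median then ranged from -0.77 to -0.52 against wild type and from -0.56 to -0.40 against Hez, and the number of lower genes from 35 to 36 and from 34 to 35. The cause was not tested. Leaving out the single wild-type or Hez library ends the comparison with it. No paired analysis was possible because the labels give no pairing between the libraries. Depth limits Nppa and Nkx2-5, with at most 37 reads in a library.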
